A study of Mus musculus with 4 samples.

Results

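The 10 genes examined here mark the parafollicular C cells of the thyroid or their secretory granules. They are the 10 symbols Calca, Calcb, Pcsk1, Pcsk2, Chga, Chgb, Scg2, Scg3, Ret and Syp, all of which were found among the 16218 genes of the count table. The libraries came from thyroids of NOD.H-2h4 mice, in which autoimmune thyroiditis develops readily, and poly(A) RNA was sequenced from both ends of each fragment. In the anti-PD-L1 group, 2 libraries came from mice injected with an antibody against PD-L1, a surface protein that restrains T cells through PD-1. In the IgG group, 2 libraries came from mice injected with an isotype control. In both groups injections were given 3 times a week for 2 weeks, and no age or sex of the mice is given in the sources used here. The labels carry a different antibody clone string for each library in a batch field, so that batch and library cannot be told apart. The comparison asks which genes of the thyroid change under PD-L1 blockade.

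C cells lie between the thyroid follicles and secrete calcitonin, a peptide hormone that lowers blood calcium. Like other neuroendocrine cells they store peptides in dense-core granules, where prohormone convertases cut the precursors and granins help to pack them, and the receptor tyrosine kinase RET is their best known growth factor receptor. None of the granule genes belongs to C cells alone: the chief cells of the neighbouring parathyroid gland, neurons and the endocrine cells of the airway use much of the same machinery.

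Total counts ranged from 75591923 to 77685257 in the anti-PD-L1 libraries and from 77492328 to 79663374.5 in the IgG libraries, so that 3 counts corresponded to 0.0370 to 0.0408 CPM (counts scaled to library size, with TMM factors that correct for library composition). Anti-PD-L1 replicate 1 stood apart. Thyroglobulin (Tg), the hormone precursor made by follicular cells, took 4.34% of its counts, against 16.9% in anti-PD-L1 replicate 2 and 14.6% to 15.3% in the IgG libraries. Xist, the transcript of the inactive X chromosome, was at 1.40 CPM in it and at 67.7 to 72.7 CPM in the other 3 libraries. Ddx3y, a gene of the Y chromosome, was at 62.6 CPM in it and at 0.350 to 0.790 CPM in the other 3 (both genes chosen after their values were seen). These levels are as in male tissue for that library and as in female tissue for the other 3. The anti-PD-L1 group thus held both patterns and the IgG group only the female pattern, and the part of sex in the fold changes was not tested. The summed level of 14 follicular markers was 46234 and 167566 CPM in anti-PD-L1 thyroids (replicates 1 and 2), against 155992 and 150528 CPM in IgG thyroids. Tg made up nearly all of this sum, at 44667 and 162488 CPM in anti-PD-L1 and 152770 and 148532 CPM in IgG. Gene by gene, anti-PD-L1 replicate 1 was the lowest library for 11 of the 14, beside 30.7% of all genes. In bulk tissue, fewer cells of a type and less RNA per cell cannot be told apart.

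No C cell gene passed the threshold of an adjusted p under 0.05. edgeR's quasi-likelihood test called 0 of the 10, against a background of 0% over all 16217 genes tested, and 0 of the 10 had an unadjusted p under 0.05, a level that 1.1% of all genes reached as lower and 4.96% as higher. DESeq2 and limma voom also called 0 of the 10. DESeq2 called 3.26% of all genes. The edgeR adjusted p was 0.914 for Pcsk2 and 0.9997 for each of the other 9. The median log2 fold change of the 10 genes was −0.28, beside 0.00020 over all genes tested. It was −0.56 without anti-PD-L1 replicate 2 and −0.25 without anti-PD-L1 replicate 1. In sign, 7 of the 10 were below 0, as were 50% of all genes. In 6 of the 10 (Calca, Pcsk1, Pcsk2, Chgb, Scg2 and Syp) both anti-PD-L1 libraries lay below both IgG libraries, which held for 13.1% of all genes, and in none did both lie above, which held for 16.5% of all genes. An exact two-sided permutation test of 2 against 2 libraries cannot go below p = 0.333. The p-values measure only the spread between these samples. edgeR combines each gene's own spread, with 2 residual degrees of freedom, with that of the other genes (median prior degrees of freedom, 2.42).

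**Figure D1:**
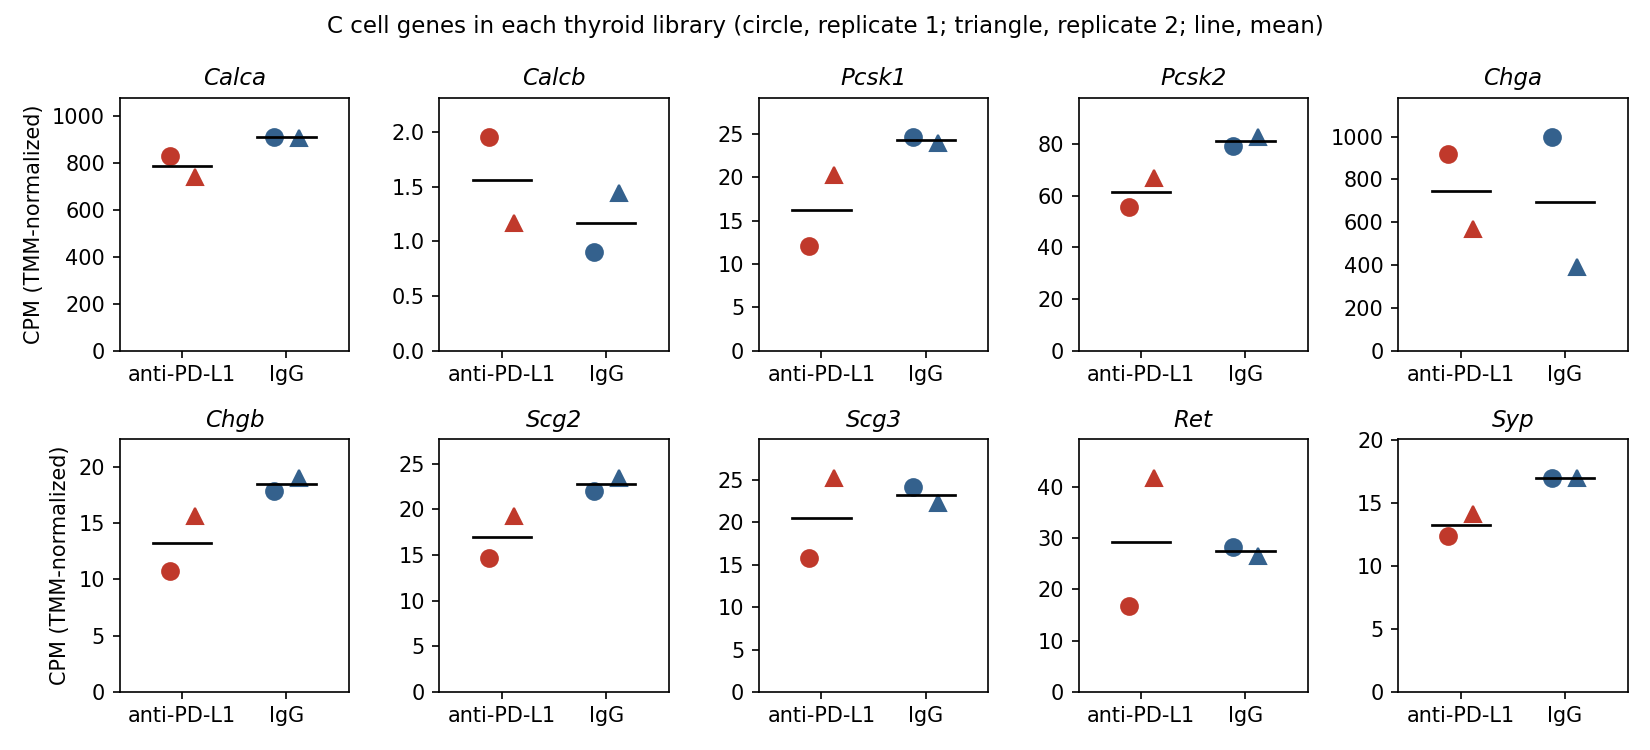
Level of each C cell gene in CPM (vertical axes, linear from 0) in the anti-PD-L1 libraries (red, left) and the IgG libraries (blue, right). Circles are replicate 1, triangles replicate 2 and lines group means (n = 2). In 6 panels both red points lie below both blue points, and the widest spread within a group is that of Ret in the anti-PD-L1 group, at 16.7 and 41.8 CPM, and of Chga in the IgG group, at 1000.1 and 389 CPM.

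Calca encodes calcitonin and, through alternative splicing, the alpha form of calcitonin gene-related peptide (CGRP), a vasodilator mainly made in sensory neurons. The gene lies on the minus strand of chromosome 7 of GRCm38, from 114631478 to 114636357. In the GENCODE M21 annotation the calcitonin transcript Calca-202 ends in an exon 4 that the CGRP transcript Calca-201 skips in favour of its own. The paralog Calcb, on the plus strand of the same chromosome from 114718643 to 114723365, encodes the beta form of CGRP and no calcitonin in mouse. The coding parts of the exons that hold the peptides are shown because a count per gene symbol adds up the calcitonin and CGRP forms of Calca, and because the CGRP exons of the paralogs are nearly the same. They read, 5′ to 3′, with the longest run shared by the CGRP exons in capitals:
Calca calcitonin exon, chr7:114633605-114633785, minus strand: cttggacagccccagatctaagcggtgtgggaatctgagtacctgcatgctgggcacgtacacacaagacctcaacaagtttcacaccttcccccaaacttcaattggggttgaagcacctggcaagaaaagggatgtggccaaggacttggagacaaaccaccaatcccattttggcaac
Calca CGRP exon, chr7:114632443-114632599, minus strand: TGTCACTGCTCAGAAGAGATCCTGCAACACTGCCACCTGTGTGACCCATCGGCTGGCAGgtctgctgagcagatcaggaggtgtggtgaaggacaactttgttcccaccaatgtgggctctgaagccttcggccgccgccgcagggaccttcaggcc
Calcb CGRP exon, chr7:114721975-114722134, plus strand: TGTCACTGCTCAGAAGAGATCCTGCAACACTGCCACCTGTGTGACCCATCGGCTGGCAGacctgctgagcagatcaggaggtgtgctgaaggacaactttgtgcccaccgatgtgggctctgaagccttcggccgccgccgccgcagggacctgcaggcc
The CGRP exons were identical at 151 of 160 aligned positions (94.4%), with a shared run of 59 bases, and the longest run shared by the full Calca-201 and Calcb-201 transcripts was 60 bases. No stretch of 75 bases of Calcb-201 occurred in Calca-201 or Calca-202. No source used here says how reads that fit both genes were counted, so a small count of Calcb beside a large one of Calca is uncertain.

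Calca had 831 and 740 CPM in anti-PD-L1 thyroids, against 912 and 906 CPM in IgG thyroids. Both anti-PD-L1 libraries were lower, and the IgG libraries lay close together. The means were 785 ± 64.6 CPM in anti-PD-L1 and 909 ± 4.28 CPM in IgG (SD, n = 2 each), a log2 fold change of −0.21 ± 0.28 (SE), and edgeR's test across all genes did not call it (adjusted p = 0.9997). Calca took 0.0808% and 0.0771% of all counts in the anti-PD-L1 libraries, against 0.0915% and 0.0890% in the IgG libraries. It was the 102nd and 81st most counted gene in the anti-PD-L1 libraries and the 70th and 79th in the IgG libraries. Of the 10 genes it varied least over the 4 libraries, with the highest value 1.23 times the lowest. Its level did not follow that of Tg: there were 18.6 and 4.55 counts of Calca per 1000 counts of Tg in the anti-PD-L1 libraries, against 5.97 and 6.10 in the IgG libraries.

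Calcb had 1.96 and 1.17 CPM in anti-PD-L1 thyroids, from 144 and 95 counts, against 0.900 and 1.44 CPM in IgG thyroids, from 72 and 110 counts. The groups overlapped, and the log2 fold change was 0.42 ± 0.43 (SE, n = 2 per group), or 0.00070 without anti-PD-L1 replicate 1 and 0.80 without IgG replicate 2. For each 1000 counts of Calca there were 2.36 and 1.59 counts of Calcb in anti-PD-L1 and 0.987 and 1.59 in IgG. Per kilobase of merged exon the mean level was 503 CPM for Calca and 1.08 CPM for Calcb.

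On this per-kilobase scale Calca was highest, and Chga followed with a mean of 261 CPM per kilobase over the 4 libraries. The ranges of these 2 genes did not overlap, at 439 to 542 CPM per kilobase for Calca and 141 to 363 CPM per kilobase for Chga. The other granule genes were far lower, with means of 9.00 CPM per kilobase for Pcsk2, 7.99 for Scg3, 7.89 for Scg2 and 5.78 for Chgb, then 4.19 for Ret, 3.62 for Pcsk1 and 2.90 for Syp. Each neighbouring pair from Pcsk2 to Syp overlapped in range over the libraries, and Calcb, at 0.712 to 1.55 CPM per kilobase, lay below all of them.

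The prohormone convertases Pcsk1 (PC1/3) and Pcsk2 (PC2) cut peptide precursors at pairs of basic residues inside the granules. Pcsk1 (chromosome 13, 75089826 to 75134861) had 12.1 and 20.3 CPM in anti-PD-L1 thyroids, against 24.7 and 24.0 CPM in IgG thyroids. Anti-PD-L1 replicate 1 was the lowest, at 0.497 of the IgG mean, and replicate 2 was at 0.834 of it. Its fold change was −0.59 ± 0.29 on the log2 scale (SE), and it was −0.26 without anti-PD-L1 replicate 1 and −1.02 without anti-PD-L1 replicate 2. The libraries of the anti-PD-L1 group differed by more than the groups did (log2 difference of replicate 1 to replicate 2, −0.75). Pcsk2 (chromosome 2, 143546156 to 143816285) had 55.8 and 66.8 CPM in anti-PD-L1, against 79.3 and 82.9 CPM in IgG. The groups were separate, and the log2 fold change of −0.40 ± 0.17 (SE) exceeded the difference between the libraries of either group (edgeR unadjusted p = 0.0676, adjusted p = 0.914). Exons of Pcsk2 overlap those of the antisense genes Pcsk2os1 and Pcsk2os2, and no strand setting of the counting is given in the sources used here. Per 1000 counts of Pcsk2 there were 217 and 304 counts of Pcsk1 in anti-PD-L1 and 312 and 290 in IgG.

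The granins are acidic proteins that aggregate in forming granules and are cut into smaller peptides. Chgb (chromogranin B, chromosome 2, 132781278 to 132795079) had 10.7 and 15.7 CPM in anti-PD-L1 thyroids, against 17.9 and 19.0 CPM in IgG thyroids, and its log2 fold change was −0.48 ± 0.24 (SE). Scg2 (secretogranin II, chromosome 1, 79434669 to 79440120) had 14.6 and 19.3 CPM in anti-PD-L1, against 22.04 and 23.5 CPM in IgG, a log2 fold change of −0.42 ± 0.20 (SE). In both genes the groups were separate and anti-PD-L1 replicate 1 was the lowest library. For Chgb the anti-PD-L1 libraries differed by more than the groups did (log2 difference of replicate 1 to replicate 2, −0.55), whereas for Scg2 they differed by less (−0.39). Scg3 (secretogranin III, chromosome 9, 75643189 to 75684056), which binds chromogranin A to the granule membrane, had 15.8 and 25.3 CPM in anti-PD-L1, against 24.2 and 22.2 CPM in IgG. Here the groups overlapped, with anti-PD-L1 replicate 1 lowest and replicate 2 highest, and the log2 fold change was −0.18 ± 0.27 (SE), or 0.12 without anti-PD-L1 replicate 1. Syp (synaptophysin, chromosome X, 7638471 to 7653256), a membrane protein of small synaptic-like vesicles, had 12.3 and 14.1 CPM in anti-PD-L1, against 17.0 and 16.9 CPM in IgG. Its groups were separate, with a log2 fold change of −0.36 ± 0.17 (SE, edgeR unadjusted p = 0.0897), and its exons overlap the antisense gene Gm14703.

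Several of these genes carry matches to the cAMP response element near their starts, a motif bound by the CREB factors through which cAMP is known to raise transcription of neuroendocrine genes. RefSeq promoter windows (GRCm38.p6) were found for 8 of the 10 genes, all but Calcb and Ret, and the 250 bases before each start were searched on both strands. The full palindrome TGACGTCA was found in Pcsk1, Chgb and Scg2, which is 3 of 8, and in 1.55% of 32851 promoter windows. The shorter form TGACG, which the palindrome contains, was found in 7 of 8 (all but Syp) and in 17.8% of all windows. The TATA box letters TATAAA were found in 0 of 8 and in 12.4% of all windows. The 150 bases before the start are shown for the genes with the palindrome and, for comparison, for Calca and Chga, in which TGACG runs on to other letters. Capitals mark each TGACG and the next 3 bases:
Pcsk1, chr13:75089707-75089856, plus strand: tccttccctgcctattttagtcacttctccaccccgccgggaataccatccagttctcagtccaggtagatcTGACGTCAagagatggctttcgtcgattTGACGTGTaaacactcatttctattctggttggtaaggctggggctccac
Chgb, chr2:132781492-132781641, plus strand: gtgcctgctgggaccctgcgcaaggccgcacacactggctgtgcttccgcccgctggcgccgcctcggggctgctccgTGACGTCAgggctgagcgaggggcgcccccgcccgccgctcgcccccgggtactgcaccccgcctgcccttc
Scg2, chr1:79440027-79440176, minus strand: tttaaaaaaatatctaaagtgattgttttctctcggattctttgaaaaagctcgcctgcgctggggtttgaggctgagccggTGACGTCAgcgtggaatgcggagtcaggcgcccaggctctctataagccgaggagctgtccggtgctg
Calca, chr7:114636358-114636507, minus strand: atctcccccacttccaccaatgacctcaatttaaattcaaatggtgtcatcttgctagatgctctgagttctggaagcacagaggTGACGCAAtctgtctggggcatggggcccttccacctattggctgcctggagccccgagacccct
Chga, chr12:102554791-102554940, plus strand: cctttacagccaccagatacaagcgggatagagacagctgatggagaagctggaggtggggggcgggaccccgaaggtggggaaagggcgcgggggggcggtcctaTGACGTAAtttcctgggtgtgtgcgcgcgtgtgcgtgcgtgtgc
The palindrome began 78 bases before the RefSeq start in Pcsk1, 72 in Chgb and 68 in Scg2, and TGACG began 65 bases before it in Calca and 44 in Chga. RefSeq starts can differ from the ends of the GENCODE genes given above. In Chgb and Scg2 the RefSeq start and the palindrome lie inside the GENCODE gene. These matches describe letters in the reference genome, and binding was not measured.

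**Figure D2:**
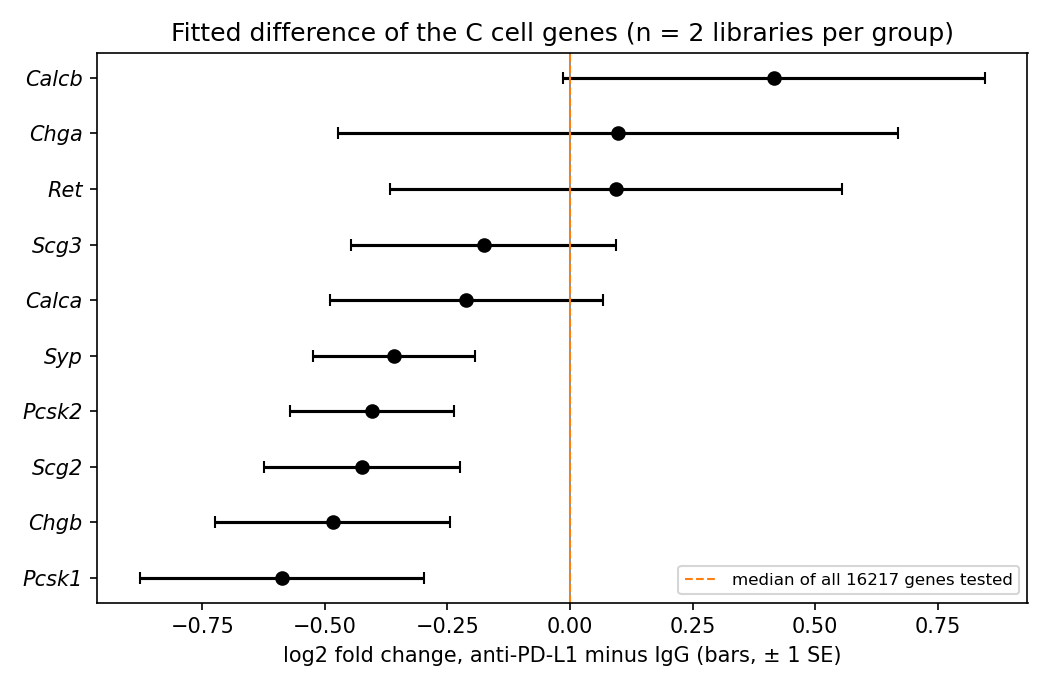
Fitted log2 fold change of each C cell gene, anti-PD-L1 minus IgG (horizontal axis), with bars of ± 1 SE (n = 2 libraries per group) and the median of all tested genes as a dashed line. Values run from −0.59 for Pcsk1 to 0.42 for Calcb, 7 of the 10 lie below 0, and none passed the threshold.

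The anti-PD-L1 libraries differed from each other in how far they lay from the IgG mean. In replicate 2, Calca, Pcsk1, Pcsk2, Chga, Chgb, Scg2 and Syp all lay between 0.814 and 0.849 of the IgG mean, while Scg3 was at 1.09 and Ret at 1.52. In replicate 1, Calca was at 0.914 of the IgG mean, and Pcsk1, Chgb, Ret, Scg2, Scg3, Pcsk2 and Syp lay between 0.497 and 0.727, while Chga was at 1.32 and Calcb at 1.67. Replicate 1 was the lowest of the 4 libraries for 7 of the 10 genes, as it was for 30.7% of all genes. It is also the library with the low share of Tg and the differing Xist and Ddx3y levels, and the part of these in the C cell values was not tested. Without it, the log2 fold changes of the 6 genes whose groups were separate ran from −0.30 for Calca to −0.24 for Chgb.

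Ratios within a library do not depend on its scaling. Per 1000 counts of Calca, anti-PD-L1 replicate 1 had 67.1 counts of Pcsk2, 14.6 of Pcsk1, 12.9 of Chgb, 17.6 of Scg2 and 14.8 of Syp. Anti-PD-L1 replicate 2 had 90.3 counts of Pcsk2, 27.5 of Pcsk1, 21.2 of Chgb, 26.0 of Scg2 and 19.1 of Syp. The IgG libraries had 87.0 and 91.5 counts of Pcsk2, 27.1 and 26.5 of Pcsk1, 19.6 and 21.0 of Chgb, 24.2 and 25.9 of Scg2 and 18.6 and 18.7 of Syp. Anti-PD-L1 replicate 1 was thus the lowest for each of these 5 genes, while anti-PD-L1 replicate 2 lay within or close to the range of the IgG libraries. Scg3 differed from them, with 19.1 and 34.1 counts per 1000 counts of Calca in anti-PD-L1 and 26.5 and 24.6 in IgG, so that replicate 2 lay above the IgG range. Among themselves Pcsk2, Scg2 and Syp kept closer proportions. Anti-PD-L1 replicate 1 had 263 counts of Scg2 and 221 of Syp per 1000 counts of Pcsk2, against 288 and 211 in anti-PD-L1 replicate 2. IgG replicate 1 had 278 and 214, and IgG replicate 2 had 283 and 204. Pcsk1 did not. It had 217 and 304 counts per 1000 counts of Pcsk2 in anti-PD-L1 and 312 and 290 in IgG. Per 1000 counts of Chgb there were 1366 and 1229 counts of Scg2 in anti-PD-L1 and 1232 and 1233 in IgG.

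**Figure D3:**
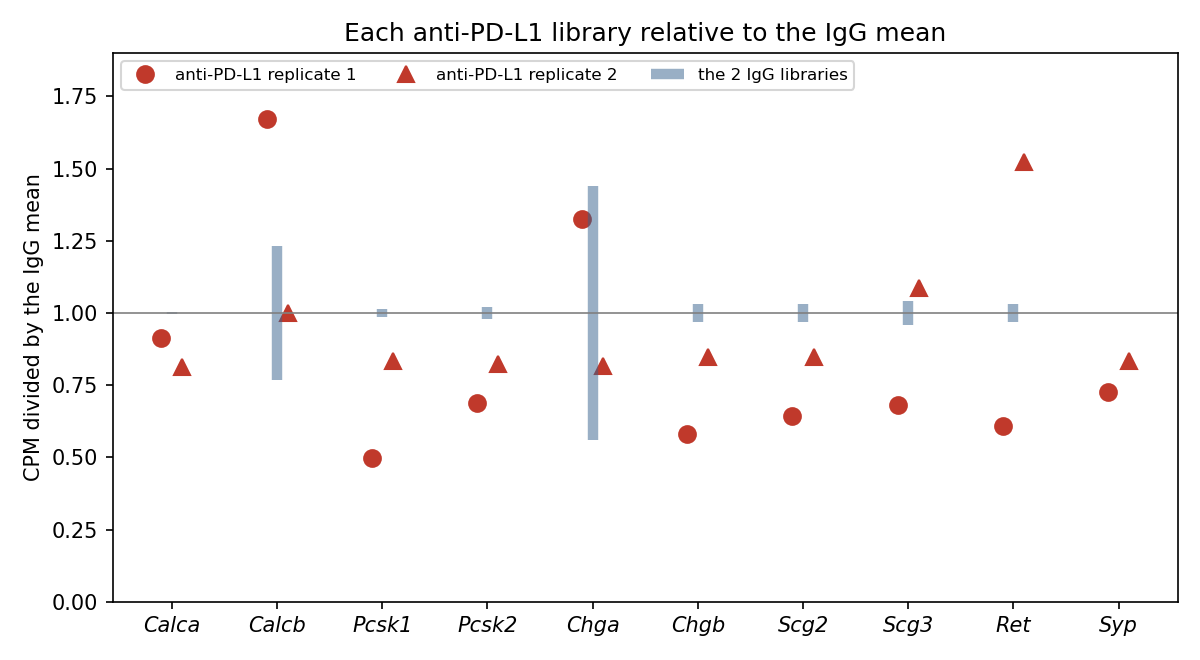
CPM of each C cell gene in anti-PD-L1 replicate 1 (circles) and replicate 2 (triangles), divided by the mean of the IgG libraries (vertical axis, linear from 0); blue bars span the IgG libraries. The triangles of 7 genes lie between 0.814 and 0.849, whereas the circles run from 0.497 for Pcsk1 to 1.67 for Calcb.

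Chga encodes chromogranin A, the most abundant granin of neuroendocrine cells and of parathyroid chief cells, on chromosome 12 from 102554969 to 102565028. It had 920 and 567 CPM in anti-PD-L1 thyroids, against 1000.1 and 389 CPM in IgG thyroids. The groups overlapped fully, and the IgG libraries differed 2.57-fold, the widest spread of any of the 10 genes. The log2 fold change was 0.10 ± 0.57 (SE, n = 2 per group), and it was −0.29 without anti-PD-L1 replicate 1, −0.43 without IgG replicate 2 and 0.91 without IgG replicate 1. Parathyroid markers were present in every library. Pth, the gene of parathyroid hormone, had 3540 and 2529 CPM in anti-PD-L1 thyroids, against 3345 and 1127 CPM in IgG thyroids. Gcm2, a transcription factor of parathyroid development chosen after its values were seen, had 10.6 and 9.37 CPM in anti-PD-L1, against 11.9 and 4.35 CPM in IgG. Both were lowest in IgG replicate 2, as Chga was, and next lowest in anti-PD-L1 replicate 2. All 5 parathyroid markers were listed, none at 0, with summed levels of 2793 to 3790 CPM in anti-PD-L1 and 1267 to 3636 CPM in IgG. Casr, the calcium-sensing receptor of both parathyroid and C cells, had 94.0 and 132 CPM in anti-PD-L1, against 158 and 69.8 CPM in IgG. Per 1000 counts of Pth there were 260 and 224 counts of Chga in anti-PD-L1 and 299 and 345 in IgG, a narrower range than that of Chga itself. By the distance of centred log2 CPM over the 4 libraries, a ranking added after the values were seen, Gcm2 was the 41st closest gene to Chga, Pth the 45th and Casr the 783rd. The 5 closest to Chga were Gm14005, Prdm1, Gna15, Mxd1 and Smpdl3b, none of them on the parathyroid list. The part of parathyroid tissue in the Chga values was not tested. Summed over all 10 genes, the level was 1891 and 1511 CPM in anti-PD-L1 and 2127 and 1512 CPM in IgG; without Calca and Chga it was 140 and 204 CPM in anti-PD-L1 and 214 and 217 CPM in IgG.

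Ret, on chromosome 6 from 118151745 to 118197718, encodes the receptor for ligands of the GDNF family. Activating mutations of RET drive medullary thyroid carcinoma, a tumour of C cells. It had 16.7 and 41.8 CPM in anti-PD-L1 thyroids, against 28.3 and 26.6 CPM in IgG thyroids. The anti-PD-L1 libraries lay on either side of both IgG libraries and differed 2.50-fold. The log2 fold change was 0.09 ± 0.46 (SE, n = 2 per group), and it was 0.61 without anti-PD-L1 replicate 1 and −0.73 without anti-PD-L1 replicate 2. Ret did not keep a proportion to Calca, with 20.1 and 56.5 counts per 1000 counts of Calca in anti-PD-L1 and 31.0 and 29.3 in IgG. Its profile was closer to that of the follicular transcription factor Pax8, chosen after its values were seen, which had 107 and 250 CPM in anti-PD-L1 thyroids, against 175 and 174 CPM in IgG thyroids. Per 1000 counts of Pax8 there were 156 and 167 counts of Ret in anti-PD-L1 and 162 and 153 in IgG. By the Euclidean distance of centred log2 CPM over the 4 libraries, Pax8 was the 7th closest to Ret of 16052 genes with a mean of at least 1 CPM, whereas Tg was the 5210th, a ranking added after the values were seen. The 5 closest were Nynrin, Zbtb20, Piezo1, Hyal3 and Gpr153, none of them on the follicular list. The part of follicular tissue in the Ret values was not tested.

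**Figure D4:**
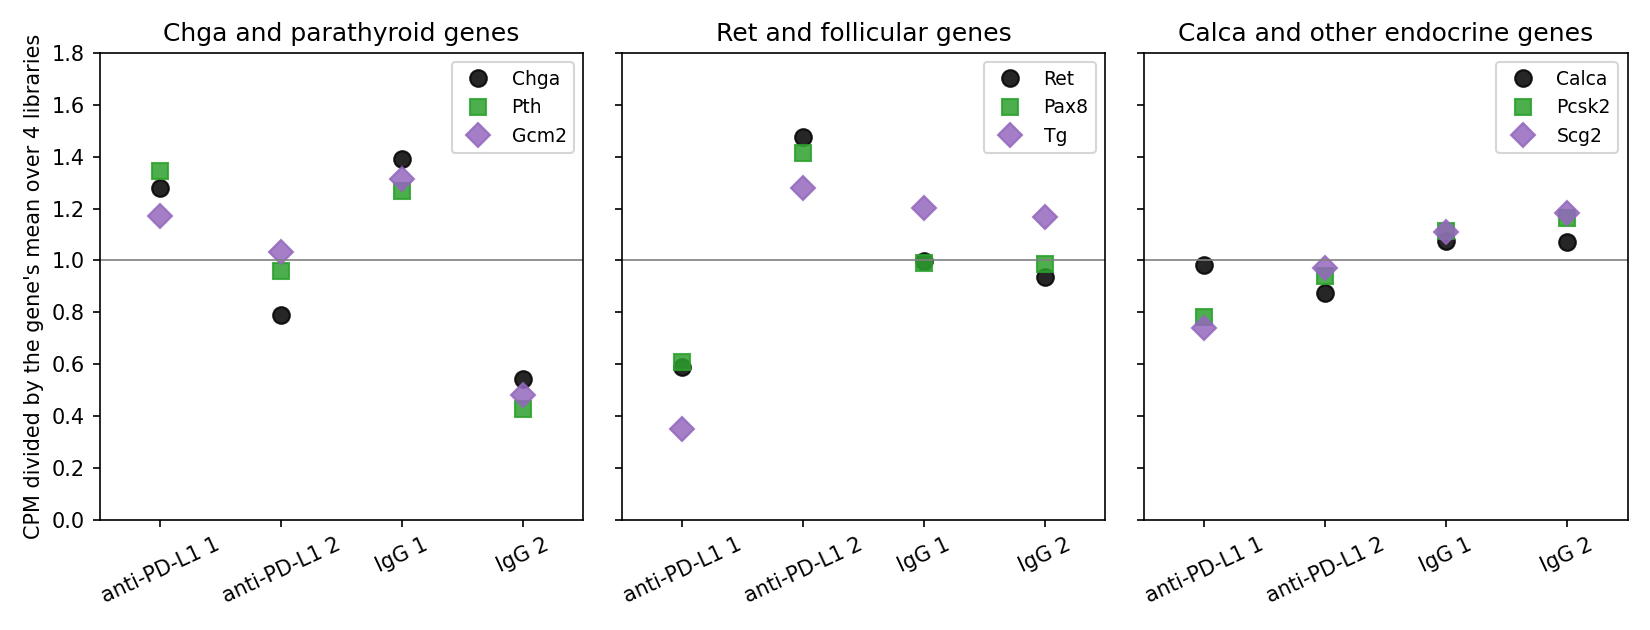
CPM divided by each gene's mean over the 4 libraries (vertical axis, linear from 0) in each library, for Chga beside the parathyroid genes Pth and Gcm2, Ret beside the follicular genes Pax8 and Tg, and Calca beside the endocrine genes Pcsk2 and Scg2. Chga, Pth and Gcm2 are all lowest in IgG replicate 2, while Ret and Pax8 are lowest in anti-PD-L1 replicate 1 and highest in anti-PD-L1 replicate 2.

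The genes whose profile over the 4 libraries lay closest to that of Calca were Gas6, Prss36, Ranbp10, Megf10 and Opa3, at distances of 0.015 to 0.025 on the log2 scale. Gas6, the closest, had 151 and 132 CPM in anti-PD-L1 thyroids, against 164 and 163 CPM in IgG thyroids. Many genes had a profile close to that of Calca: 1098 of the 16052 genes compared lay within a distance of 0.2 of it.

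The other components of the C cell programme were read from the same fit. Of 13 further genes of prohormone processing and granules, 11 were listed, all but Vgf and Scgn. edgeR called 0 in either direction, with 0 at an unadjusted p under 0.05 and 0 called by DESeq2. Their median log2 fold change was −0.15, and 10 of the 11 were below 0, beside 50% of all genes. Anti-PD-L1 replicate 1 was the lowest library for 8, beside 30.7% of all genes. Ptprn (IA-2), a membrane protein of dense-core granules, had 9.17 and 14.4 CPM in anti-PD-L1, against 19.0 and 18.0 CPM in IgG (log2 fold change −0.65 ± 0.27, edgeR unadjusted p = 0.0655). Its relative Ptprn2 had 9.10 and 15.8 CPM in anti-PD-L1, against 16.4 and 18.9 CPM in IgG. Both had separate groups, with the lowest value in anti-PD-L1 replicate 1. The enzymes Cpe, which trims basic residues from cut peptides, and Pam, which amidates calcitonin and CGRP, had log2 fold changes of −0.33 ± 0.34 and −0.10 ± 0.27. Scg5, the chaperone of PC2, had 38.6 and 73.3 CPM in anti-PD-L1, against 66.9 and 54.7 CPM in IgG, and its groups overlapped.

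Of 24 genes of the vesicle fusion machinery, 23 were listed, with a median log2 fold change of −0.09 and 0 called by edgeR or DESeq2, 0 having an unadjusted p under 0.05. Cplx2 (complexin 2), the most abundant of them in mean CPM, had 42.5 and 176 CPM in anti-PD-L1, against 140 and 126 CPM in IgG. Its libraries within the anti-PD-L1 group lay on either side of the IgG values, as those of Ret did. Grp, the gene of gastrin-releasing peptide, differed in the same way, with 31.4 and 254 CPM in anti-PD-L1, against 203 and 166 CPM in IgG. Grp belongs to a list of 15 further peptide and amine genes, of which 10 were listed, with a median log2 fold change of −0.15 and 0 called by edgeR or DESeq2, 0 having an unadjusted p under 0.05.

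Of 14 transcription factors of C cells and neuroendocrine cells, 11 were listed, with a median log2 fold change of −0.21. edgeR called 0, although 1 had an unadjusted p under 0.05. DESeq2 called 1 of the 11, beside 3.26% of all genes. Both times it was Nkx2-2, a factor of endocrine differentiation. It had 8.86 and 8.10 CPM in anti-PD-L1, against 4.77 and 4.81 CPM in IgG, with a fold change of 0.82 ± 0.20 on the log2 scale (edgeR adjusted p = 0.41, DESeq2 adjusted p = 0.0322). Insm1, a factor of neuroendocrine differentiation, had 5.44 and 7.12 CPM in anti-PD-L1, against 7.97 and 8.01 CPM in IgG. It lay below IgG in each anti-PD-L1 library and lowest in replicate 1, and it did not pass (edgeR adjusted p = 0.9997).

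Among 10 ligands and coreceptors of RET, 8 were listed, all but Pspn and Gfral, with a median log2 fold change of −0.05 and 0 called by edgeR or DESeq2, 0 having an unadjusted p under 0.05. Gfra4, the coreceptor for persephin, had 4.15 and 6.41 CPM in anti-PD-L1, against 7.48 and 5.17 CPM in IgG, with overlapping groups. Of 9 other peptides and receptors of the calcitonin family, 7 were listed, all but Iapp and Calcr, the calcitonin receptor. Their median log2 fold change was 0.40, and edgeR called 0, although 1 had an unadjusted p under 0.05. DESeq2 called 1 of the 7, beside 3.26% of all genes, and in both cases it was Adm2. Adm2, which encodes the vasodilator peptide adrenomedullin 2, had 6.40 and 5.15 CPM in anti-PD-L1, against 2.66 and 2.13 CPM in IgG (log2 fold change 1.27 ± 0.26, edgeR adjusted p = 0.322, DESeq2 adjusted p = 0.00690). Calcrl, which with a RAMP partner forms the CGRP receptor, had 12.5 and 13.0 CPM in anti-PD-L1, against 13.8 and 12.9 CPM in IgG.

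**Figure D5:**
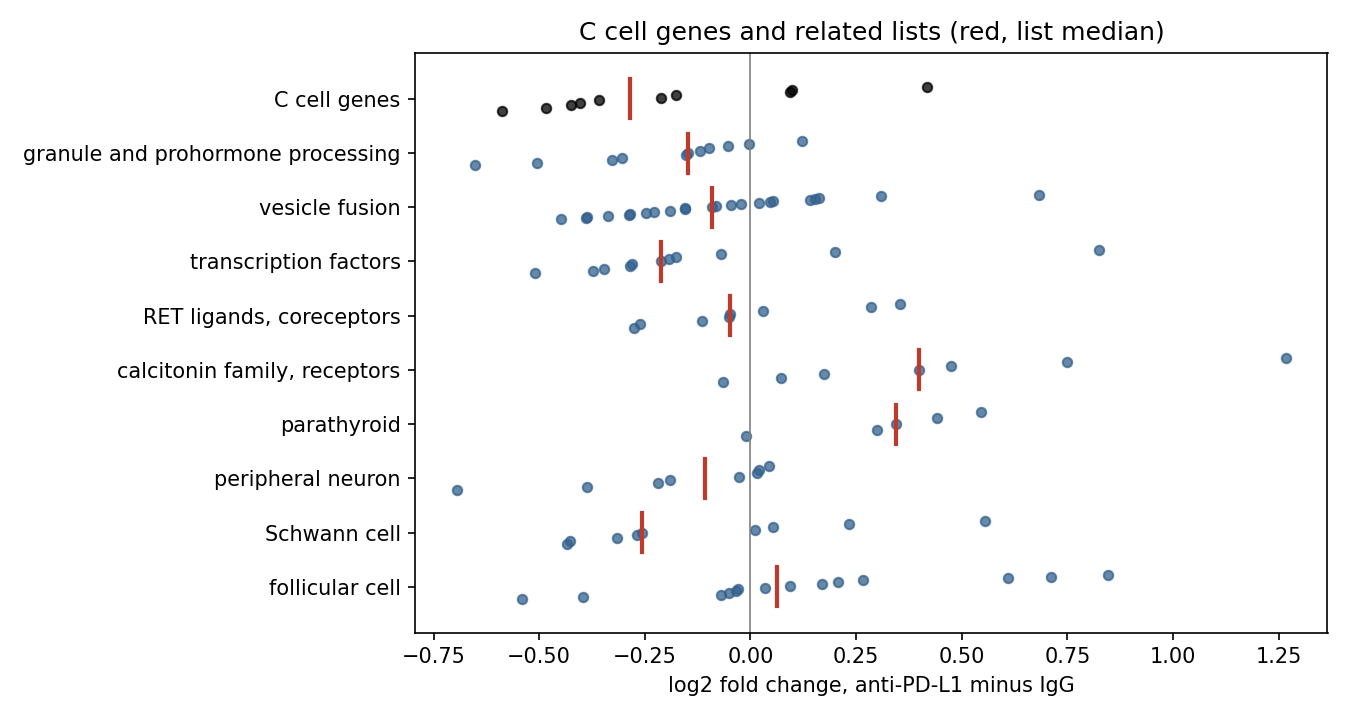
Log2 fold changes, anti-PD-L1 minus IgG (horizontal axis), of the C cell genes (black) and of the genes of related and neighbouring lists (blue), 1 point per gene, with list medians in red. The C cell genes have a median of −0.28 and the calcitonin family and receptor list one of 0.40.

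Markers of other cells that could carry these genes were read beside them. Of 15 peripheral neuron markers 8 were listed, none at 0, and their summed level was 28.2 and 39.3 CPM in anti-PD-L1 and 39.7 and 31.6 CPM in IgG. All 9 Schwann cell markers were listed, none at 0, with summed levels of 194 and 269 CPM in anti-PD-L1 and 290 and 269 CPM in IgG. Both sums were lowest in anti-PD-L1 replicate 1. Gene by gene it was the lowest library for 3 of the 8 neuron and 5 of the 9 Schwann cell markers, beside 30.7% of all genes. Adjacent tissue varied far more: 12 airway and mucosal gland markers summed to 32381 and 10785 CPM in anti-PD-L1 and to 4631 and 20903 CPM in IgG, 9 squamous epithelium markers to 5752 and 102 CPM in anti-PD-L1 and to 12669 and 3377 CPM in IgG, and 9 skeletal muscle markers to 51632 and 18108 CPM in anti-PD-L1 and to 29950 and 40781 CPM in IgG. A list of 8 airway neuroendocrine and tuft cell genes also holds Calca and Calcb. None of its genes passed the threshold, and its tuft cell genes differed in sign. The log2 fold change was −0.62 for the cation channel Trpm5 and −0.87 for the transcription factor Pou2f3, both below IgG in each anti-PD-L1 library, while it was 0.05 for Avil and 0.15 for Dclk1, with overlapping groups. The sum of 11 leukocyte markers was 1472 and 794 CPM in anti-PD-L1, against 80.7 and 307 CPM in IgG, with a median log2 fold change of 2.18. Jchain alone held most of the anti-PD-L1 sums, at 1142 and 443 CPM, against 16.4 and 164 CPM in IgG. DESeq2 called 9 of the 11, beside 3.26% of all genes. edgeR called 0 of them over all genes. Of the 11, 8 were higher at an edgeR unadjusted p under 0.05, a level that 4.96% of all genes reached as higher. The 8 cartilage markers summed to 49.9 and 51.7 CPM in anti-PD-L1, against 116 and 146 CPM in IgG, with 4 called by DESeq2, beside 3.26% of all genes. The median log2 fold change was −0.87 for the cartilage list, −1.36 for the squamous, −0.13 for the airway neuroendocrine and tuft, 0.27 for the airway and mucosal and 0.16 for the muscle list. It was 0.34 for the parathyroid, 0.06 for the follicular, −0.11 for the neuron and −0.26 for the Schwann cell list, and edgeR called 0 genes in each of these. The part of these cells in the C cell values was not tested.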

How the data were processed

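RNA from mouse thyroids was poly(A)-selected for 4 libraries and sequenced in pairs, per the labels' protocols. The authors deposited expected counts for each gene symbol without normalization. Per the submitters' processing notes BWA and mm10 were used, with no role or version. The sources used here name no counting program, annotation, strand setting or filter. Of 16218 genes, 3328 had a count ending in 0.5 (Calca among them), 13 blank cells were read as 0, and each gene reached at least 100 in 1 library.

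Counts were rounded and tested with edgeR 4.0.16 (R 4.3.3): filterByExpr, TMM, robust quasi-likelihood F test on group, two-sided, Benjamini-Hochberg over 16217 genes, threshold 0.05. Each SE is the absolute log2 fold change over the square root of F. Library pairs differed by more than sampling noise (chi-square over its degrees of freedom, 1056 for anti-PD-L1 and 321 for IgG). By itself this does not show that they came from separate mice, and no label states it. Between the anti-PD-L1 libraries, Xist (1.40 and 67.7 CPM) and Ddx3y (62.6 and 0.790 CPM) differed as between male and female tissue. Those libraries are therefore not repeats of the same sample. The IgG libraries (replicates 1 and 2) differed in adjacent tissue markers, as in Bpifa1 (337 and 3101 CPM) and Krt13 (3808 and 999 CPM). Their spread is thus more than that of repeat counts of the same RNA. Floors of 3 counts cover counting error only. DESeq2 1.42.0, limma 3.58.1 (voom), other scalings and filters, a replicate block and leaving out each library were alternatives. The steps were tested on simulated data.

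Gene positions and merged exon lengths came from GENCODE M21 (GRCm38), promoters from RefSeq (GRCm38.p6). The 10 members and 16 further lists were chosen with earlier results of these data known. From each list the text names up to 4 genes of highest mean CPM and up to 2 of smallest p, with the 5 profiles closest to Calca; any further gene is marked as picked with its values known.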

Additional observations from a re-analysis of the deposited data

How the results depend on the processing

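None of the 10 C cell genes passed the threshold in any setting run. Over all genes, edgeR called 0, with each library left out as well (0 to 0), while DESeq2 called 528 and a threshold of 0.10 gave 15. The median log2 fold change of the C cell genes was −0.28, ran from −0.30 to −0.26 under the other scalings, filters, tools and the block, and from −0.56 (without anti-PD-L1 replicate 2) to −0.25 (without anti-PD-L1 replicate 1) with each library left out. A fit without a library leaves 1 group with a lone sample, which is then assumed to vary like the other group. Of 90 values of single genes under those 9 settings, 88 kept their direction. Both exceptions were Ret, at −0.0464 with limma voom and −0.0511 with the replicate block. With each library left out, the log2 fold change ran from −0.43 to 0.91 for Chga, from −0.56 to 0.12 for Scg3 and from −0.73 to 0.61 for Ret; that of Calcb ran from 0.00070 to 0.80 and that of Pcsk1 from −1.02 to −0.26. The replicate numbers are only names here, since replicate differences correlated across genes with r = 0.0998 between the groups and nothing in the labels ties them together; with the replicate block edgeR called 0 genes and the median was −0.29. The cause of these changes was not tested.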
